A study of Mus musculus with 2 samples.

Results

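The hairpins considered here are the mouse microRNA (miRNA) genes numbered Mir6896 to Mir7093, a block of late-registered names. Members were taken by name alone: every counted gene whose GENCODE M21 symbol lies between these names, both included, with suffix letters allowed. This gave 199 genes of the 2202 counted, covering 198 numbers. No counted gene carried the number 6967, and Mir6973a, Mir6973b and Mir7036b carried suffixes.

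Small RNA was sequenced from the gastrocnemius, the large calf muscle, of 2 female mice at postnatal day 4, with 1 library per female. The animals were B6CASTF1/J, the F1 hybrid of C57BL/6J and CAST/EiJ parents, and no treatment or engineered allele is named in the labels. The labels number the females separately but give both the same donor record, so the spread between libraries may be partly technical. The tissue was whole muscle, so less RNA per cell and fewer cells of one type cannot be told apart, and the effect of CAST/EiJ sequence differences on read assignment was not tested.

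A canonical miRNA hairpin is cut from its primary transcript by Drosha and then trimmed to a short duplex by Dicer. A mirtron reaches the Dicer step by another route: the spliceosome excises a short intron, the lariat is debranched, and the linear intron itself folds into the hairpin. In a tailed mirtron only one end of the hairpin is set by splicing, and the remaining stretch of intron is trimmed away. In a 5′-tailed mirtron the 3′ end of the hairpin is the 3′ splice site, where introns carry a run of pyrimidines followed by AG.

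Hairpins of 6 of the 7 members detected below are shown first, because their ends carry the intron boundaries. Sequences are RefSeq's for GRCm38.p6, which held a hairpin for 178 and a mature sequence for 183 of the 199 members. All 178 hairpins lay at the GENCODE position. Capitals mark the annotated mature arms, and each sequence runs 5′ to 3′. The RefSeq sequences used held no 3′ arm for Mir6923, so that arm is neither marked nor listed.
Mir6944: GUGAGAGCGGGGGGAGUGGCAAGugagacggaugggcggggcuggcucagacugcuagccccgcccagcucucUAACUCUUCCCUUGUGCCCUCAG
Mir6923: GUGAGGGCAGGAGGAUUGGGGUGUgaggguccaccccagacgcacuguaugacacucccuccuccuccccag
Mir6945: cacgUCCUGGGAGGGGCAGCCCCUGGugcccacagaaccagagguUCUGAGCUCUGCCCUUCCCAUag
Mir6994: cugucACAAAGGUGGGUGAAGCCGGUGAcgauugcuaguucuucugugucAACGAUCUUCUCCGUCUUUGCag
Mir7007: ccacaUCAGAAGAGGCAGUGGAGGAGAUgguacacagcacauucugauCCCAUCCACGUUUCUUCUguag
Mir7083: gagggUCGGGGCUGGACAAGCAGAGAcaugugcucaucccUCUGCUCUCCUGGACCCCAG

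Each of these hairpins ends in AG, the last 2 bases of its host intron. Mir6944 and Mir6923 also begin with GU, the first 2 bases of theirs, so in those genes the hairpin is the whole intron. The mature strands of the detected members are shown next with the seed, bases 2 to 8, in capitals. Among the strands shown, no 2 of these 7 members shared a seed.
miR-6944-5p: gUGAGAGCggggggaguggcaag
miR-6944-3p: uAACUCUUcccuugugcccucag
miR-6923-5p: gUGAGGGCaggaggauuggggugu
miR-6945-5p: uCCUGGGAggggcagccccugg
miR-6945-3p: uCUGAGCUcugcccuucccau
miR-6994-5p: aCAAAGGUgggugaagccgguga
miR-6994-3p: aACGAUCUucuccgucuuugc
miR-7007-5p: uCAGAAGAggcaguggaggagau
miR-7007-3p: cCCAUCCAcguuucuucu
miR-7083-5p: uCGGGGCUggacaagcagaga
miR-7083-3p: uCUGCUCUccuggaccccag
miR-6900-5p: uGCCAGGAgaagccuagagccguc
miR-6900-3p: uGGUGAUGggcucucuuguag

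The libraries held 10426665 and 8487769 reads, of which 5569392 (53.4%) and 4336759 (51.1%) were counted on the own strand of a miRNA gene. Reads that matched several places, 36.9% and 37.6% of all reads, belonged to no gene. Levels are CPM, own-strand counts scaled to a total of 1000000 gene counts per library, so 1 count was worth 0.1796 CPM in library 1 and 0.2306 CPM in library 2. By the one-sided 95% limit used here for zeros, a count of 0 allows up to 3 counts, or 0.539 and 0.692 CPM. Of the listed muscle markers, Mir206, a skeletal muscle miRNA, had 720323 and 517475 counts, and Mir499, Mir208b, Mir486 and Mir133b had means of 1169, 155.9, 87.3 and 82.9 CPM. Some markers of other cells were also high, with Mir126a (endothelial) at a mean of 25720 CPM. Mir223 (leukocyte) and Mir203 (epithelial) had means of 257 and 224 CPM. The other epithelial genes listed, Mir205, Mir200c and Mir141, had means of 31.5, 24.3 and 1.90 CPM. The neural genes Mir124a-1, Mir124a-2, Mir9-1 and Mir9-2 had 0 to 3 counts. Of the same neural list, Mir137 and Mir338 had means of 105.7 and 337 CPM. Mir122, a liver miRNA, stood at 169 CPM in library 1 and 824 CPM in library 2. The other listed liver and gut genes were low in both libraries. Mir192 stood at 14.9 and 9.22 CPM and Mir194-2 at 14.5 and 16.6 CPM.

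The 199 members were seen at very low levels. Together they had 545 counts in library 1 and 458 in library 2, which is 0.00979% (exact 95% binomial interval 0.00898 to 0.0106) and 0.0106% (0.00962 to 0.0116) of gene counts. The intervals overlap, and the mean was 0.0102% ± 0.000548 (SD, n = 2). Summed over all members this was 97.9 CPM (89.8 to 106.4) and 105.6 CPM (96.2 to 115.7).

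Detection was taken as a level of at least 2 CPM in each library, which needs 11.1 counts in library 1 and 8.67 in library 2. Of the 199 members, 7 (3.52%) were detected, against 15.2% of all counted genes. With 1 count or more in either library as the rule, 135 members (67.8%) were seen, against 33.6% of all counted genes. At 1 count or more in both libraries the figure was 75 (37.7%), against 25.2%. So the share of members with a trace of signal lay above the share over the whole table. The share past 2 CPM lay below that of the whole table. The table includes 1028 genes not named Mir with a number, of which 5.06% had a count in either library. Counts in both libraries were found for 61.7% of genes numbered below 1000 or named Mirlet7. Those shares were 30.3% for numbers from 1000 up to the members and 27.4% for numbers above them.

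Most members with a count had few. A total of 1 count over both libraries was found for 40 members, 1 to 3 counts for 73, 4 to 9 for 41 and 10 or more for 21, and the median over all 199 was 1. Counts were seen in library 1 but not library 2 for 34 members and in library 2 but not library 1 for 26. The remaining 64 members had no count, which by the same one-sided limit allows each of them up to 3 counts per library. The leading gene alone held 20.6% of all member counts, the top 10 held 49.75% and the top 25 held 68.1%. No member had a count on the opposite strand in either library. All 199 lie on the strand of a protein-coding host gene, and counts per hairpin give no read ends. Whether a count came from a processed miRNA or from a fragment of host RNA was not tested.

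**Figure D1:**
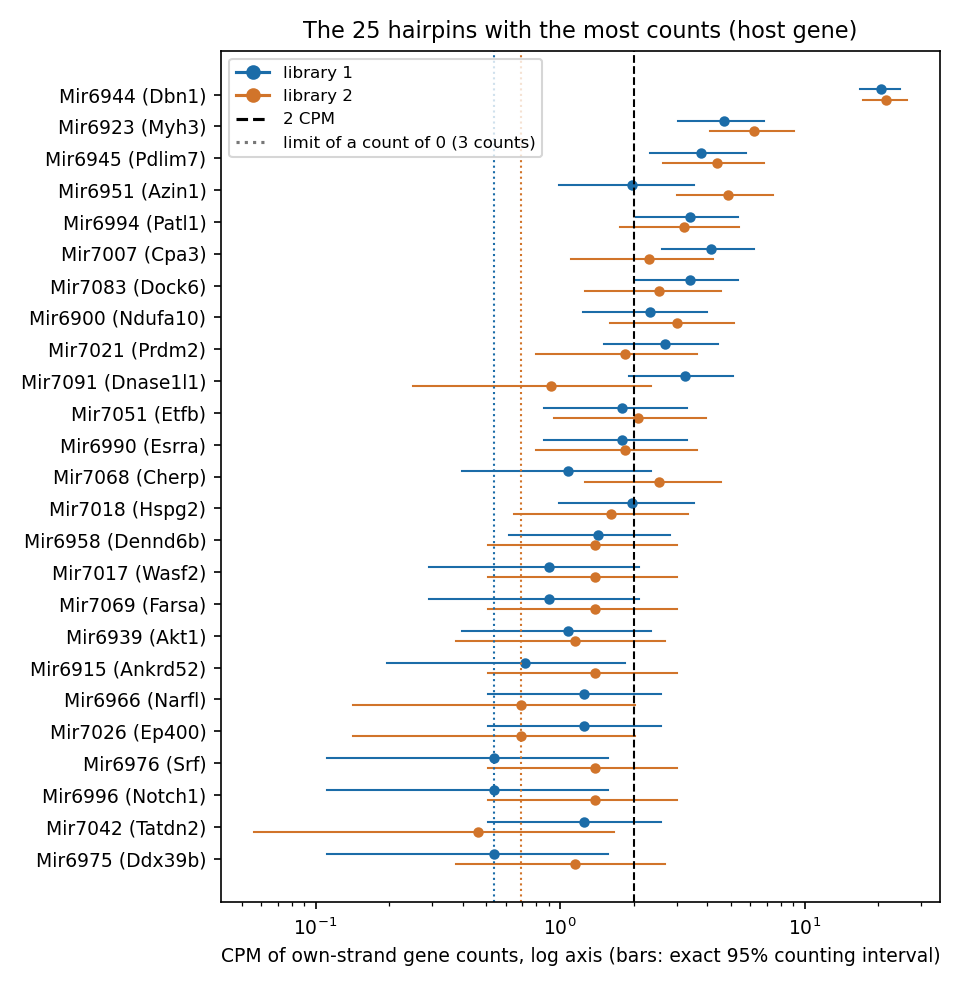
CPM of own-strand gene counts, on a log axis, for the 25 members with the highest mean CPM, with the host gene in brackets. Dots are single libraries, bars are exact 95% counting intervals, the dashed line is 2 CPM and the dotted lines are the levels of 3 counts. Mir6944 stands to the right of all others in both libraries, and 7 genes have both dots at or beyond the dashed line.

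Mir6944 was the most abundant member. It had 114 counts in library 1 and 93 in library 2, or 20.5 CPM (16.9 to 24.6) and 21.4 CPM (17.3 to 26.3). Both libraries were alike, and neither interval reached the interval of any other member. The mean was 20.96 CPM ± 0.690 (SD, n = 2), which placed it at rank 236 among all 2202 counted genes. Its hairpin spans chr13:55477681-55477776 on the minus strand of mm10 and is the whole of the 96-base intron 9 of 14 of Dbn1, which encodes the actin-binding protein drebrin. Its predicted folding energy was -55.8 kcal/mol, or -0.58 kcal/mol per base. Per base, Mir7032, Mir6936 and Mir6927 lay lower, at -0.67, -0.63 and -0.61 kcal/mol, and each of the 3 had 1 count over both libraries.

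Mir6923 came next and is hosted by Myh3, the embryonic myosin heavy chain of developing muscle. It had 26 and 27 counts, or 4.67 CPM (3.05 to 6.84) and 6.23 CPM (4.10 to 9.06). The intervals overlap between libraries, and the mean was 5.45 CPM ± 1.10 (SD, n = 2). The hairpin, chr11:67099804-67099875 on the plus strand, is the whole of the 72-base intron 35 of 40.

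Mir6945 lies in Pdlim7, which encodes a PDZ and LIM domain protein of the actin cytoskeleton. It had 21 and 19 counts, or 3.77 and 4.38 CPM, with a mean of 4.08 ± 0.432 (SD, n = 2). It occupies the last 68 bases of the 239-base intron 5 of 7, at chr13:55507625-55507692 on the minus strand. An exon of another transcript also overlaps it, so these counts cannot be tied to the intron alone.

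Another 4 members passed 2 CPM in both libraries, and each ends at the 3′ end of a longer intron. Mir6994, in intron 7 of 18 of the messenger RNA decay gene Patl1, had 19 and 14 counts, or 3.41 and 3.23 CPM, with a mean of 3.32 ± 0.130 (SD, n = 2). Mir7083, in intron 39 of 49 of Dock6, had 19 and 11 counts, or 3.41 and 2.54 CPM, with a mean of 2.97 ± 0.619 (SD, n = 2). Mir6900, in intron 4 of 9 of Ndufa10, a subunit of respiratory complex I, had 13 counts in each library, or 2.33 and 3.00 CPM, with a mean of 2.67 ± 0.469 (SD, n = 2). In all 3 the intervals of the libraries overlap. Their introns are 324, 1833 and 2898 bases long. They lie at chr19:11923728-11923800 on the plus strand, chr9:21809941-21810000 on the minus strand and chr1:92464483-92464542 on the minus strand.

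Mir7007 is the last of the 4 and lies in intron 8 of 10 of Cpa3, the mast cell carboxypeptidase, at chr3:20222290-20222359 on the minus strand. It had 23 counts in library 1 and 10 in library 2, or 4.13 CPM (2.62 to 6.20) and 2.31 CPM (1.11 to 4.24). Library 1 was higher, but the intervals overlap. All 5 listed leukocyte markers were also higher in library 1: Mir142 at 161 against 94.5 CPM, Mir223 at 331 against 184, Mir146 at 357 against 244, Mir150 at 72.2 against 47.5 and Mir155 at 92.8 against 81.9. The part of leukocyte content in the Mir7007 counts was not tested.

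In 1 library only, 5 members passed 2 CPM: Mir6951, Mir7021, Mir7051, Mir7068 and Mir7091. The closest to the rule was Mir6951. This gene, in intron 12 of 12 of Azin1, a regulator of polyamine synthesis, had 11 and 21 counts, or 1.98 and 4.84 CPM. Mir7021, in intron 7 of 9 of the chromatin gene Prdm2, had 15 and 8 counts, or 2.69 and 1.85 CPM. Mir7051 stood at 1.80 and 2.08 CPM, Mir7068 at 1.08 and 2.54, and Mir7091 at 3.23 and 0.922. Just inside, Mir6900 and Mir7007 had their lower values at 2.33 and 2.31 CPM. With counting intervals this wide, the order of neighbouring members below Mir6944 was not resolved. From Mir6923 to Mir7021, the intervals of neighbours in the order overlap in both libraries.

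The other 16 named members, the rest of the 25 with the highest mean CPM, had 22 to 8 counts over both libraries. Mir7091, in the DNase family gene Dnase1l1, had 18 counts in library 1 and 4 in library 2, while Mir7068, in Cherp, had 6 and 11. Mir7051 (Etfb, an electron transfer flavoprotein subunit), Mir6990 (Esrra, a nuclear receptor of energy metabolism) and Mir7018 (Hspg2, the basement membrane proteoglycan perlecan) had 10 and 9, 10 and 8, and 11 and 7 counts. Mir6958 in Dennd6b had 8 and 6. The remaining 10 had 2 to 7 counts in each library and lie in Wasf2, Farsa, Akt1, Ankrd52, Narfl, Ep400, Srf, Notch1, Tatdn2 and Ddx39b. The last of these, Mir6975 in Ddx39b with 3 and 5 counts, was tied in mean CPM with Mir7079 in the ribosomal protein gene Rpl13.

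Hairpins differ in length, so levels of different members were also set side by side per 100 bases. The RNA sequenced was below 30 bases and the shortest hairpin has 52, so a count need not grow with hairpin length. The scale is given as a description and not as a correction. On this scale of mean CPM per 100 bases, Mir6944 stood at 21.8, Mir6923 at 7.57 and Mir6945 at 5.99, the same order as before. Mir7083, whose hairpin is 60 bases long, moved up to rank 4 with 4.96, and Mir6951 moved down to rank 7 with 4.545.

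**Figure D2:**
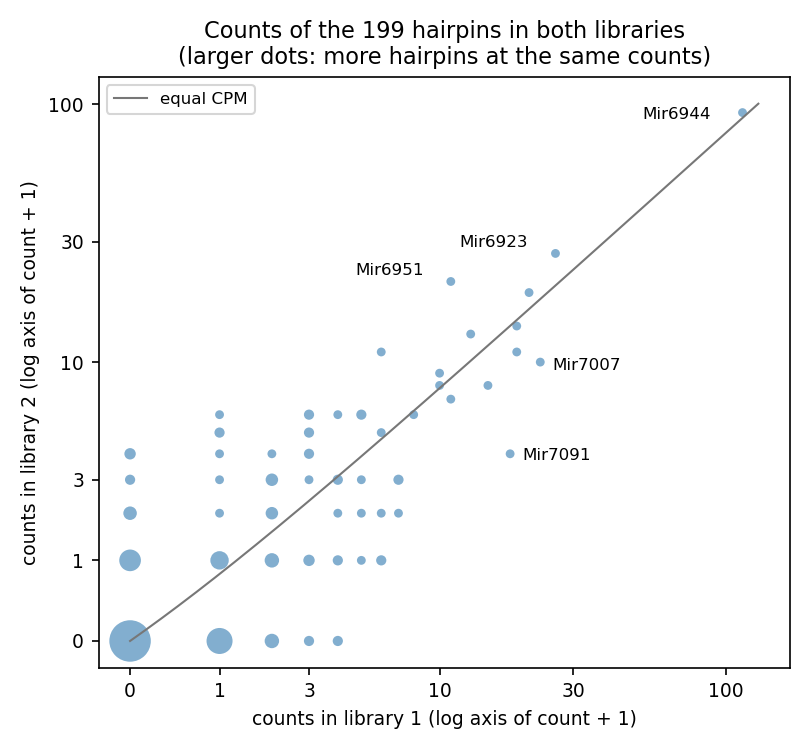
Counts of each of the 199 members in library 1 (horizontal) and library 2 (vertical), both on a log axis of count plus 1, with dot area growing with the number of members at the same pair of counts. The line marks equal CPM. Mir6944 sits near the line at 114 and 93 counts, Mir7091 and Mir7007 lie on the library 1 side, Mir6951 on the library 2 side, and the largest dot holds the 64 members with no count.

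The series has a single group, so the one comparison available was between its libraries, which says nothing of conditions. Each of the 335 detected genes was compared by an exact two-sided binomial test of its counts given scaled library totals, with Benjamini-Hochberg adjustment at 0.05. This test called 186 genes (55.5%), 96 higher in library 2 (28.7%) and 90 higher in library 1 (26.9%). Of the 7 members tested, 0 were called, and 0 had an unadjusted p under 0.05.

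The members' intervals were wide. The log2 ratio of library 2 to library 1 was 0.04 for Mir6944 (95% interval -0.37 to 0.45, adjusted p = 0.887 by the exact binomial test) and 0.39 for Mir6923 (-0.44 to 1.23, adjusted p = 0.453 by the same exact test). The largest in size was that of Mir7007, -0.86 (-2.10 to 0.26, exact adjusted p = 0.178). For the other 4 the ratio ran from -0.45 in Mir7083 to 0.34 in Mir6900. At this depth a ratio of the size of 1 on the log2 scale lay outside the interval of Mir6944, but inside those of Mir6923, Mir6945, Mir6994, Mir7007, Mir7083 and Mir6900 in at least one direction.

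When the test was run on all 740 genes with a count, 135 members entered and 0 were called, against 24.7% of the 740. The 73 members with 1 to 3 counts over both libraries could not reach an unadjusted p under 0.05 at any split. For 0 and 3 counts the exact binomial test gave an unadjusted p of 0.0861. The low number called therefore does not show that members differed less between libraries than other genes. An unadjusted p under 0.05 was found for 6 members, against 30.5% of the 740. The 2 of these 6 with more than 7 counts had log2 ratios of -1.83 for Mir7091 (-3.85 to -0.23, exact adjusted p = 0.0645) and 1.27 for Mir6951 (0.15 to 2.47, exact adjusted p = 0.0741). The other 4, named after their values were seen, were Mir7019 with 1 and 6 counts and Mir6911, Mir6950 and Mir6995 with 0 and 4 counts each. Counted without regard to strand, 11 members passed 2 CPM in both libraries (14.5% of all counted genes did), and 1 of the 11, Mir6951, was then called (51.6% of the 320 genes tested were), with a log2 ratio of 1.25 (exact adjusted p = 0.0400).

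All 199 members lie on the strand of a protein-coding host gene, and no member lacks a same-strand host. The host genes number 194, because Srebf1, Cmip, Arap3, Ankrd52 and Skiv2l each hold 2 members. A hairpin end was placed at an intron's end when it lay within 5 bases of it. By this rule 185 members (93.0%) end at the 3′ end of their intron: 15 (7.54%) span the whole intron and 170 (85.4%) reach its 3′ end only. Another 4 have only their 5′ end at an intron's end (Mir6936, Mir6927, Mir6973b and Mir6977), 2 lie inside an intron with neither end at a splice site (Mir7051 and Mir7036b), and 8 run into an exon. All 7 detected members are among the 185.

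The match to the splice site was exact in nearly every case. The last base of the hairpin was the last base of the intron in all 15 whole-intron members and in 169 of the 170 that reach the 3′ end only. Among the 15, 14 also start on the first base of the intron, and Mir7082 in Raver1 starts 4 bases before it. In sequence, 185 members end in AG and 31 start with GT in the genome. Of the 8 members that run into an exon, 7 fall into the group that reaches the 3′ end only when 10 bases are allowed in place of 5.

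**Figure D3:**
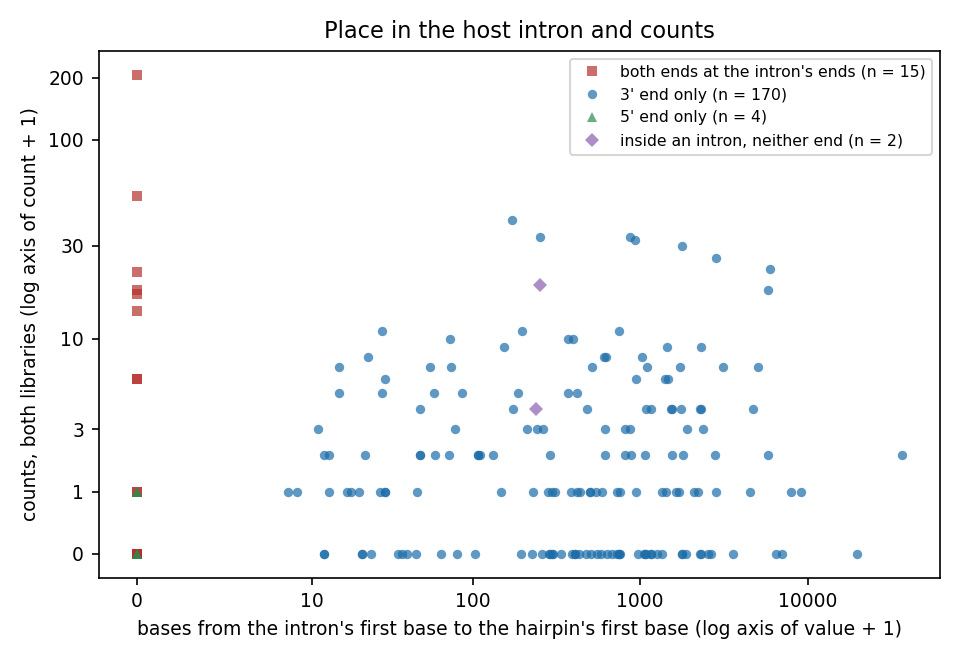
Distance from the first base of the host intron to the first base of the hairpin (horizontal, log axis of value plus 1) and counts over both libraries (vertical, log axis of count plus 1), 1 marker per intronic member, coloured by which hairpin ends coincide with intron ends. The 8 members that run into an exon are not drawn. The 170 members that reach only the 3′ end spread over distances of 7 to 36200 bases, and members with and without counts lie along the whole range.

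Introns under 200 bases held 65 of the 199 members (32.7%), so most did not lie in a short intron by this measure. The 15 whole-intron members lie in introns of 67 to 137 bases with a median of 83. For the 170 that reach the 3′ end only, the median intron was 572 bases and the shortest 77, and the hairpin began a median of 508.5 bases after the intron's first base. Only 46 of these 170 lie in introns under 200 bases, while 63 lie in introns of 200 bases up to 1000 and 61 in introns of 1000 or more. The set is therefore described here by the position of its 3′ ends rather than by short introns.

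Detection was then counted by class. Of the 15 whole-intron members, 10 (66.7%) had a count and 2 (13.3%) were detected, and they held 188 and 157 counts. Of the 170 that reach the 3′ end only, 117 (68.8%) had a count and 5 (2.94%) were detected, and they held 340 and 283 counts. Counts per member were 23 in the first class and 3.67 in the second, but without Mir6944 the first fell to 9.86. The whole-intron class held 34.4% of all member counts with Mir6944 and 17.3% of the rest without it.

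Within the whole-intron class the values ran from the top of the list to 0. Mir6944, Mir6923, Mir7091, Mir7018, Mir7068 and Mir6958 had 14 counts or more over both libraries. Mir7080 in Cpne7 had 1 and 5 counts, Mir7070 in Fbxw9 had 2 and 4, and Mir7058 in Lat, a T cell adaptor, and Mir7082 in Raver1 had 1 in library 1 and 0 in library 2. The other 5 had no count. They were Mir6970 in Skiv2l, Mir6974 in Lta (the cytokine lymphotoxin alpha), Mir6981 in Arap3, Mir7060 in Fbrs and Mir7088 in Mst1. Exons of other transcripts overlap Mir7068, Mir6958, Mir7080, Mir7058, Mir6970 and Mir6981, so any counts there cannot be tied to the intron alone.

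Counts were seen at every intron length among the 170 members that reach the 3′ end only. In introns under 200 bases 34 of 46 (73.9%) had a count and 0 were detected, with 62 and 54 counts. In introns of 200 bases up to 1000 41 of 63 (65.1%) had a count and 3 were detected, with 135 and 110 counts. In introns of 1000 bases or more 42 of 61 (68.9%) had a count and 2 were detected, with 143 and 119 counts. The longest intron with a member, in the transcription factor gene Klf7, held Mir6899 with 1 count in each library.

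In the remaining classes counts were few. The 4 members at a 5′ end had 1 count in each library, and the 8 that run into an exon had 4 and 6. Of the 2 inside an intron, Mir7051 carried nearly all of their 12 and 11 counts. It ends 9 bases before the end of an intron of a noncoding Etfb transcript and is also overlapped by an exon. Of all 199, 180 lie between coding exons, 7 between exons of a 5′ UTR and 3 between exons of a 3′ UTR. Those 3, Mir6998, Mir7052 and Mir6935, were placed by host transcripts annotated as nonsense-mediated decay. Their label need not hold for other transcripts of the host. Exons of other transcripts overlap 31 members, and 14 have a gene on the opposite strand.

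Host identity was described with host lists chosen for muscle and connective tissue. Of 87 listed muscle genes, 3 host a member: Myh3, Pdlim7 and Hspg2. Hspg2 was placed on the muscle list although it encodes perlecan, a proteoglycan of basement membranes. All 3 members had counts, 58 and 53 in the libraries, with a median of 40 over both libraries against 1 over all members. Detection was reached by 2 of the 3, against 3.52% of all members and 15.2% of all counted genes. The lists were chosen with earlier results of these data known, so these contrasts are descriptions and not tests. They held 11.1% of member counts. Of 41 listed connective tissue genes, only Lama5, a laminin chain of basement membranes, hosts a member, and Mir7005 in it had 1 count in each library. With 3 and 1 members, these lists describe single genes.

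The members were next set beside the other numbered miRNA genes. A hairpin end at an intron's 3′ end, found for 93.0% of members, was found for 2 of 525 genes (0.381%) numbered below 1000 or named Mirlet7, for 20 of 333 (6.01%) numbered from 1000 up to the members, and for 15 of 117 (12.8%) numbered above them. Detection at 2 CPM was 53.5%, 10.8% and 4.27% in those 3 ranges, against 3.52% of members. The share with 1 count or more in either library was 66.7%, 44.7% and 46.2%, against 67.8% of members. By the looser rule the members lay next to the lowest numbers, and by the stricter one next to the highest. No test was made of these differences.

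**Figure D4:**
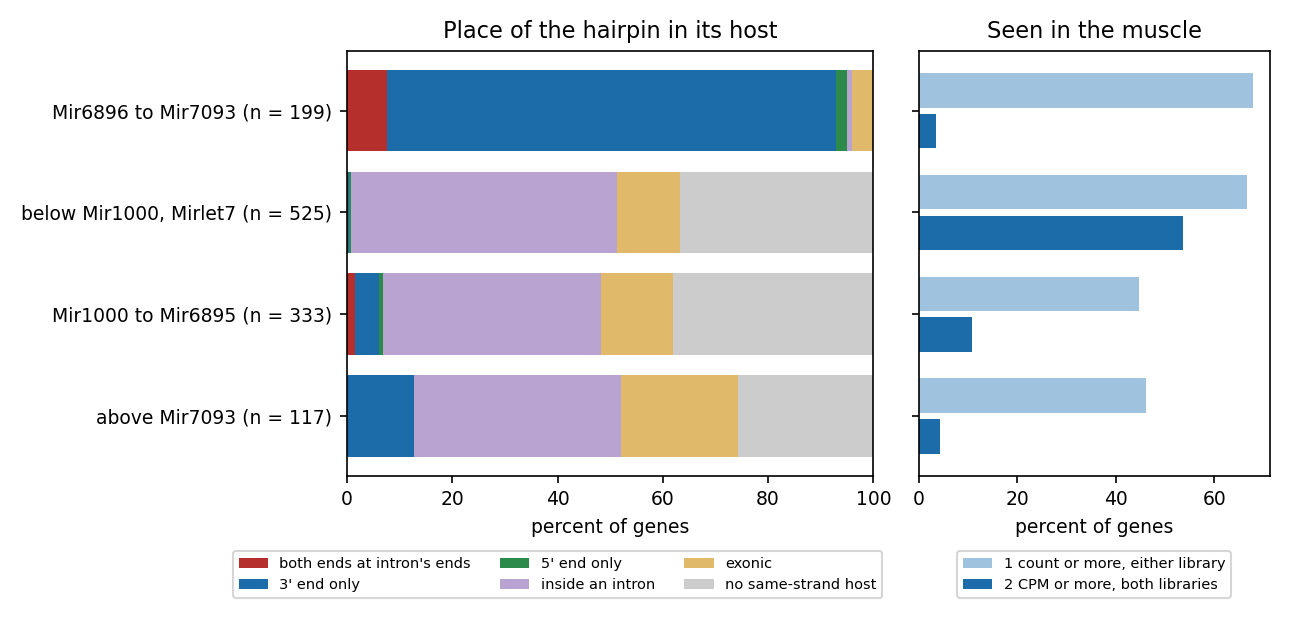
Left, percent of genes in each number range by place of the hairpin in its host. Right, percent of the same genes with 1 count or more in either library and with 2 CPM or more in both. The bar of the members is filled to 93.0% by hairpins that reach an intron's 3′ end, and their bars at right are 67.8% and 3.52% long.

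Of the hairpins with a 3′ end at an intron's end, 7 of 185 members were detected, and 2 of 2, 4 of 20 and 0 of 15 in the other 3 ranges. Of 8 other genes listed as mirtrons from general knowledge, 5 were detected, but only 4 of the 8 are whole introns in this annotation. Mir668, in the noncoding gene Mirg and with only its 5′ end at an intron's end, had 708 CPM ± 37.2. Mir1981, Mir3102 and Mir877, each a whole intron, had 130.7 ± 13.1, 83.2 ± 8.51 and 31.4 ± 0.751 CPM, all above the 20.96 CPM of Mir6944 (SD, n = 2 throughout). Mir702, which runs into an exon of Plod3, had 11.9 ± 6.95 CPM. Mir1224 had 0 and 15 counts, Mir5132 had 2 in each library and Mir5107 had 1 and 0, and none of the 3 was detected. Mir1224 is a whole intron, and Mir5132 and Mir5107 run into exons.

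The make-up of the hairpins was also set beside that of the older ones. The median member hairpin was 66 bases long with a GC content of 57.4%, against 84 bases and 46.2% for genes numbered below 1000 or named Mirlet7. The range among members was 52 to 137 bases and 25.3% to 81.5% GC. The most AU-rich was Mir6951, which had 32 counts, and the most GC-rich was Mir6936, which had 1. The median predicted folding energy was -26.2 kcal/mol, against -35.6 kcal/mol for the lowest numbers, and per base -0.389 against -0.419 kcal/mol.

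Few members shared sequence with another counted hairpin, which bears on how many of their reads could match several places. A stretch of 20 bases was shared with another counted hairpin by 2 members (1.01%), Mir6970 with Gm27471 and Mir7065 with Gm27475, and both had 0 counts. The share was 40.0% among genes numbered below 1000 or named Mirlet7. The other 197 members have no such stretch in common with a counted hairpin, and copies elsewhere in the genome were not searched.

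The 3p arms of members were rich in the pyrimidines that mark the end of introns. In RefSeq the 3p arms of members had a median of 72% pyrimidines (C or U), with quartiles of 66.7% and 77.3%, and 109 of 175 (62.3%) had 70% or more. The 5p arms had a median of 31.8%, and 0 of 175 reached 70%. Among genes numbered below 1000 or named Mirlet7 the medians were 52.2% for 3p and 50% for 5p arms, and 22 of 333 3p arms (6.61%) reached 70%. These are properties of the annotation and used no counts.

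**Figure D5:**
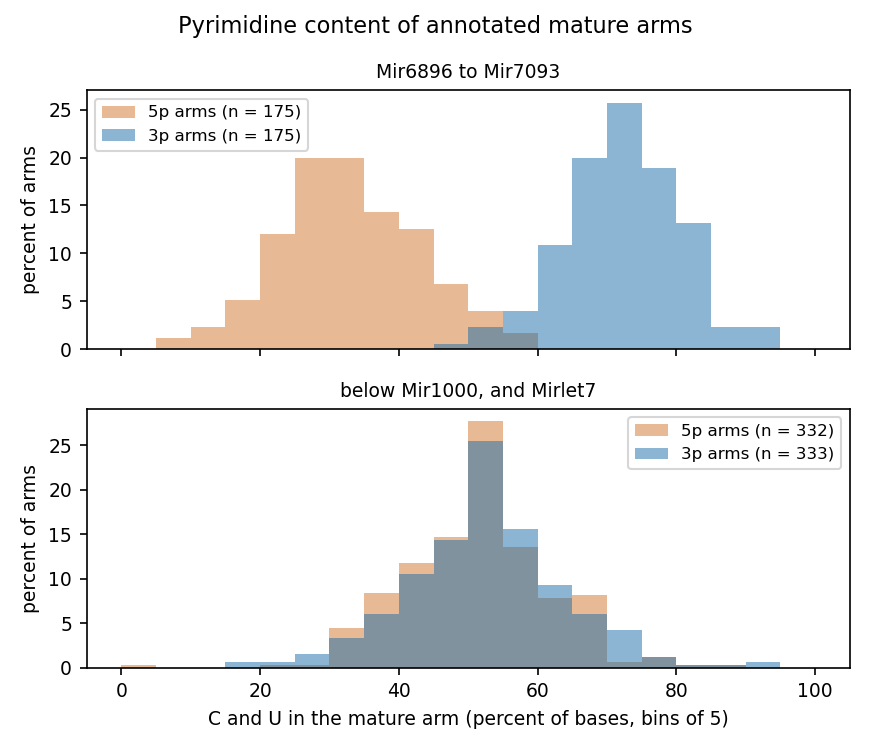
Percent of mature arms (vertical) by their content of C and U in percent of bases (horizontal, bins of 5), for 5p and 3p arms of the members (top) and of genes numbered below 1000 or named Mirlet7 (bottom). In the members the arms part, with medians of 31.8% and 72%, while in the other genes they lie over each other, with medians of 50% and 52.2%.

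Of the 3p arms, 137 (78.3%) end in AG, against 6.31% of 3p arms in genes numbered below 1000 or named Mirlet7. Among the 164 annotated 3p arms whose hairpin ends at an intron's 3′ end, 130 (79.3%) stop on the last base of the intron and 161 within 5 bases of it. In the whole-intron class 11 of 13 annotated 5p arms start on the first base of the intron. Mir6944 shows both: its 5p arm begins with the intron's GU and its 3p arm closes with the intron's AG. In Mir6945 and Mir6994 the 3p arm stops 2 bases short, leaving the final AG outside the mature strand. The deposited table gives 1 count per hairpin, so the arms could not be counted separately.

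The seeds were mostly distinct: the 350 mature sequences held 322 different ones. A seed was shared by 2 or more members in 24 cases, which took in 51 members, with at most 3 members to a seed. The shared seed with the most counts among those of 3 members was CACCCUG, in miR-7018-3p, miR-7068-3p and miR-7023-3p, whose hairpins had 36 counts together. The first 2 are shown with the seed in capitals, since both are whole introns of different hosts.
miR-7018-3p: uCACCCUGcugccggcuugcag
miR-7068-3p: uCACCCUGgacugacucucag

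Seeds of members were found again outside the set in 35 cases, 20 of them in genes numbered below 1000 or named Mirlet7. Among the named members, miR-7083-5p has the seed of miR-12197-3p, miR-6958-5p that of miR-30c-1-3p and miR-30c-2-3p, miR-7069-3p that of miR-18a-3p, miR-6966-5p that of miR-542-5p and miR-6915-5p that of miR-540-3p. A shared seed is a match of letters, and no target was measured. Those with the seeds of miR-30c and miR-18a strands are shown as examples.
miR-6958-5p: gUGGGAGAagaggcugcugugg
miR-7069-3p: cCUGCCCUgccaaccccuaca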

How the data were processed

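Per the labels, small RNA below 30 bases was sequenced. The authors deposited raw whole-number counts per gene for mm10 with GENCODE M21, per the labels and file descriptions. Aligner and counter are not given in the sources used. Each deposited count table has 3 columns, read from their sums as counts ignoring strand, own-strand counts and opposite-strand counts, and own-strand counts were used. The 4 lines that name no gene were left out of totals: 36.9% and 37.6% of reads multimapping, 8.03% and 9.26% unmapped, and 1.70% and 2.09% in no feature.

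All 2202 identifiers matched GENCODE M21 miRNA genes, which gave symbols, positions and host introns. Library totals were scaled by TMM in edgeR 4.0.16 (R 4.3.3) over genes at 2 CPM or more in both libraries, with DESeq2 1.42.0 size factors as an alternative. The edgeR quasi-likelihood test has no contrast to fit in 1 group, so an exact binomial test was used. Folding energies came from RNAfold 2.7.2 at 37 degrees Celsius. The rest was done in Python 3.11.15 with pandas 2.3.3, scipy 1.17.1 and numpy 2.4.6, and plots in matplotlib 3.10.9. The counting test was tested on simulated data. Intervals are exact at 95% (Poisson for levels, Clopper-Pearson for shares and ratios) and cover only counting error, because PCR copies of a molecule cannot be told from independent ones without molecular identifiers.

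Members and lists were chosen with earlier results of these data known. Named genes were the detected members, the 25 members with the highest mean CPM, members hosted by listed muscle or connective tissue genes, and a short list of other mirtrons. Others, named for their intron class, tie, folding energy, uneven counts or shared seed, were chosen after their values were seen. The alternatives tried were the strand, detection rule, denominator, scaling, splice-site tolerance, transcripts, stretch length, pseudocount and each library alone.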

Additional observations from a re-analysis of the deposited data

Results flagged for a closer look

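Reads that matched several places made up 36.9% of all reads in library 1 and 37.6% in library 2. These reads are in no gene's count, so they lie outside every level given for the hairpins, and the series has no control samples to set them against. They were singled out because they form a large signal in lines of the table that the report's comparisons do not use. How many of them came from members was not tested. The 2 members that share 20 bases with another counted hairpin, Mir6970 and Mir7065, both had 0 counts.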

How the results depend on the processing

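The number of detected members rested on the rule. It was 7 at 2 CPM in both libraries on the own strand, and 11 with counts ignoring strand. At 1 count it was 75 in both libraries and 135 in either library. Of all counted genes, 15.2% passed the first rule and 14.5% passed it ignoring strand. At 1 count, 25.2% of all counted genes passed in both libraries and 33.6% in either. The number of members was 1 at 10 CPM and 3 with all reads as the denominator. The shares of all genes under these last rules are not given here. Between libraries, 0 members were called, also with DESeq2 size factors, plain totals or all genes with a count, and 1 with counts ignoring strand. Of all genes tested, 55.5% were called in the main test, 24.7% among all genes with a count and 51.6% ignoring strand. The shares of all genes with DESeq2 size factors and plain totals are not given here. The members' share of gene counts, 0.0102%, was 0.0116% with counts ignoring strand, where gene totals are smaller, and 0.00808% without Mir6944, an alternative chosen after seeing the data. With each library alone, 9 to 10 members were detected, 101 to 109 had a count and the share was 0.00979% to 0.0106%. The shares of all counted genes that were detected or had a count in each library alone are not given here. Whole-intron members numbered 14 to 18 and those reaching only the 3′ end 169 to 176 over splice-site tolerances of 0, 2 and 10 bases or protein-coding transcripts alone. Log2 levels of the 7 detected members, with a pseudocount of 0.1 or 5 in place of 0.5 CPM, moved past the spread between libraries in 8 of 14 cases. No paired analysis was possible because the series has 1 group. Depth limits most members: 2 CPM is 11.1 or 8.67 counts. Only Mir6944, Mir6923 and Mir6945 had counting intervals wholly above 2 CPM in both libraries.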
